A study of Homo sapiens with 4 samples.

Results

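Most autosomal H3K9me3 regions called in a line of human fibroblasts had another called region less than 500 kb away. The regions described here are the exceptions: autosomal H3K9me3 regions with no other called region within 500 kb on either side. Of 5211 regions in the list, 3382 lay on the 22 autosomes, and 414 of these (12.2%) were isolated by this rule, while the other 2968 had a neighbour closer than 500 kb. The gap was taken as the start of the next region minus the end of the one before, on the same chromosome. The first and the last region of a chromosome needed a gap on 1 side only, and 6 members entered in this way. The list came from ChIP-seq, the sequencing of DNA precipitated with a given chromatin mark. The cells were BJ-HELT, human foreskin fibroblasts that express hTERT, the catalytic subunit of telomerase, and the early region of SV40. No treatment is named in the labels. Cells were at passage 10 to 11 and gave 2 libraries from an H3K9me3 precipitate and 2 from input DNA. The line is immortalized and stands for 1 source of fibroblasts, and whether its replicates were grown separately is not stated in the labels.

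H3K9me3 is the trimethylation of lysine 9 on histone H3. It is laid down by methyltransferases such as SUV39H1 and SETDB1 and bound by HP1 proteins, which help to keep chromatin compact and silent. In human cells it is known above all from broad domains over satellite repeats next to centromeres and from clusters of KRAB zinc finger genes. It is also known from small sites, among them retroelements to which zinc finger proteins recruit TRIM28 and SETDB1. Which of these classes of sequence the isolated regions overlap was not analysed here.

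A single list represented all libraries, so values are given with no replicate error, and no test over libraries could be made. The list gives a whole number for every region, read here as its count of ChIP reads. Counts summed to 2226222 over the list and to 1405235 over autosomes, and they ranged from 27 to 103161. Reads outside called regions are not in these sums, and library depth is unknown. The gaps chose the members, so gaps, the number of members and their share per chromosome are descriptions. Length and count were not used by the rule, but both come from the same calling as the gaps. Regions of 1 list are not replicates, and differences in length and count are therefore given as descriptions as well. Intervals for shares are 95% Wilson intervals and cover counting error only.

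The isolated regions were short, and broad domains were rare among them. Their median length was 3000 bp (quartiles 1800 and 4150 bp), against 4000 bp (3000 and 5800 bp) for the other autosomal regions. Regions of 10 kb or more made up 7.81% of all autosomal regions. Among the isolated there were 5 of 414 (1.21%, interval 0.517 to 2.80%), and among the others 259 of 2968 (8.73%, 7.76 to 9.80%). At the other end of the scale, 3.64% of all autosomal regions were 1 kb long or shorter. The isolated set held 51 of them (12.3% of its members, 9.50 to 15.8%) and the other set 72 (2.43%, 1.93 to 3.04%). The shorter median was found on most chromosomes: the isolated median was the lower on 18 of 22 autosomes, the higher on 3 (chromosomes 2, 18 and 20) and equal on chromosome 6. Isolated medians per chromosome ranged from 2200 bp on chromosome 21 to 4600 bp on chromosome 20, where the isolated numbered 7 and 10.

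The share of regions that stood alone fell with each step in length. It was 10 of 15 among regions of 200 bp (66.7%, interval 41.7 to 84.8%), the smallest unit of the list, which made up 0.444% of autosomal regions. Among those of 0.4 to 1 kb it was 41 of 108 (38.0%). It went on through 21.4% at 1.2 to 2 kb, 16.0% at 2.2 to 3 kb, 12.3% at 3.2 to 4 kb and 8.59% at 4.2 to 6 kb. Only 22 of 423 regions of 6.2 to 9.8 kb (5.20%) and 5 of 264 of 10 kb or more (1.89%) were isolated.

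**Figure D1:**
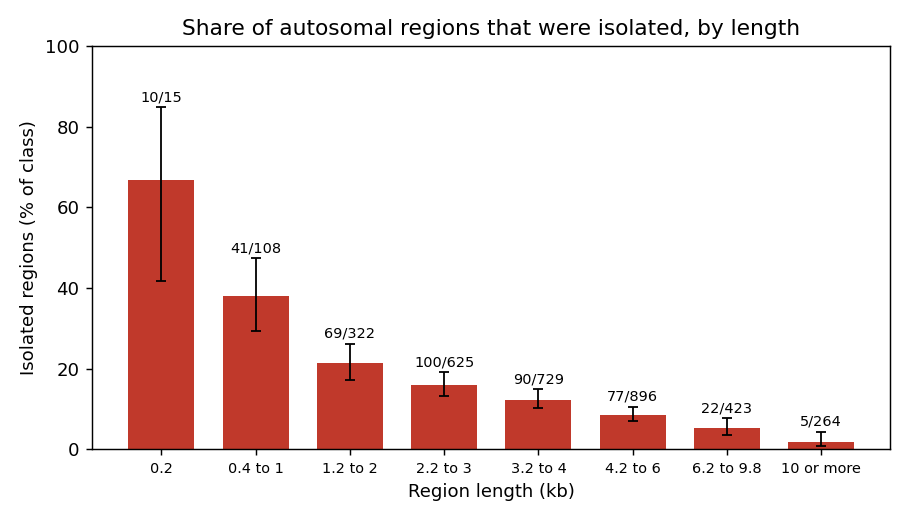
Percent of autosomal H3K9me3 regions that were isolated, by region length in kb. Bars give the share, error bars the 95% Wilson interval and labels the number isolated over the number in the class; the share falls from 66.7% at 0.2 kb to 1.89% at 10 kb or more.

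The 10 isolated regions of 200 bp were single calling windows with counts from 27 to 53. One of them was the most remote autosomal region of the list. It lay on chromosome 4 (hg19, chr4:123432201-123432400), held 34 counts and was 41.3 Mb from the region before it and 47.4 Mb from the region after. The next region on that chromosome was again a single window (chr4:170859401-170859600, 29 counts), with 11.3 Mb free on its other side. Chromosome 11 had a pair of such windows in a row, at chr11:34736801-34737000 (29 counts) and chr11:38385801-38386000 (28 counts). The region with the lowest count of the list was of this kind too, at chr2:145701001-145701200 with 27 counts. The most heavily counted of the 10 lay at chr15:89071001-89071200 with 53. Stretches below the authors' threshold are not in the list, so the space around these windows shows no call and not an absence of the mark.

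Among the 10 longest isolated regions, 2 stood out by their length and count. One covered 125.8 kb on chromosome 1 (chr1:121350401-121476200) with 16214 counts, or 129 counts per kb. Its neighbour on the side of the short arm was 775.0 kb away, and the gap on its other side was 21.1 Mb. As background, the centromere of chromosome 1 and the largely unassembled heterochromatin of its long arm lie in that gap. The other covered 33.4 kb of chromosome 2 (chr2:89848401-89881800) and held 26529 counts (794 counts per kb), the highest count of any isolated region. The remaining 8 measured 7.2 to 19.8 kb and had 23.3 to 45.0 counts per kb, against an autosomal median of 30.8 and upper quartile of 38.6. Of these 8, the 2 above that quartile lay on chromosomes 1 (45.0) and 2 (43.5). The quartile is over regions of all lengths. Against other regions of equal length, the one on chromosome 1 held 1.67 times the median count and the one on chromosome 2 only 0.66 times.

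Chromosome 15 carried the 2 longest of the 8, which were neighbours of each other with 9.12 Mb between them. The longer measured 19.8 kb (chr15:43951001-43970800, 687 counts, 34.7 counts per kb), and the shorter 11.4 kb (chr15:34818001-34829400, 325 counts, 28.5 counts per kb). The fifth longest isolated region was 10.8 kb on chromosome 2 (chr2:232703601-232714400) and held 470 counts. The last 5 measured 7.4 kb (chromosomes 1, 14 and 15) or 7.2 kb (chromosomes 6 and 10) and held 168 to 333 counts. In all, 4 isolated regions measured 7.2 kb, and the other 2, both on chromosome 18, tied with the last of the 10. The first of these (chr18:105201-112400) held 12755 counts and was the densest isolated region. The range of counts per kb given above thus depends on how the tie was broken. Only 5 isolated regions were therefore as broad as 10 kb, on chromosomes 1, 2 and 15.

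Isolated regions also held fewer reads. The median count was 95 (quartiles 75 and 119), against 118 (94 and 172) for the others. Counts under the autosomal median of 114 made up 49.2% of all autosomal regions, 288 of the 414 isolated (69.6%, interval 65.0 to 73.8%) and 1376 of the 2968 others (46.4%, 44.6 to 48.2%). Longer regions had higher counts in both sets, so counts were next set side by side at equal length. At 30 lengths from 0.2 to 6.6 kb, each set had at least 5 regions. The isolated median was the lower at 21 of these lengths, the higher at 8 and equal at 1. The median ratio of isolated to other was 0.96, and ratios ran from 0.72 at 0.6 kb to 1.11 at 5.8 kb. At 2.4 kb, the length with the most isolated regions, the medians were 82.5 (28 isolated) and 82 (102 others). At 4 kb they were 105 (21 isolated) and 113.5 (134 others). By the median ratio, the 2 sets thus differed by a few percent at matched length, less than the unmatched medians did. Single lengths could differ more: the ratio was 0.76 at 0.4 kb (14 isolated) and 0.72 at 0.6 kb (11 isolated). At the other 3 lengths of 1 kb or less it was 1.05 to 1.09.

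**Figure D2:**
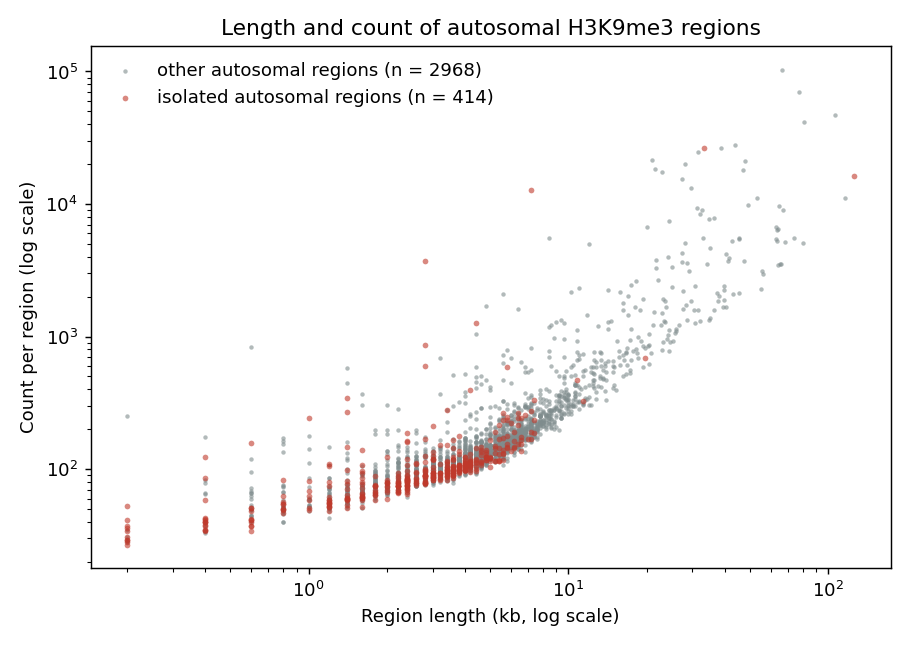
Count per region against region length in kb, both on log scales, for the 414 isolated (red) and 2968 other (grey) autosomal regions. Most isolated regions lie under 10 kb within the band of the others, while a few, such as the one of 7.2 kb with 12755 counts, lie far above it.

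Divided by length, the counts told the 2 sets apart less clearly. The median was 33.0 counts per kb for isolated regions (quartiles 27.2 and 44.7) and 30.7 for the others (27.5 and 37.8), a ratio of 1.08. The direction turned when each chromosome had the same weight: the mean of the chromosome medians was then 34.1 for isolated and 34.8 for other regions, a ratio of 0.98. By chromosome, the isolated median was the higher on 14 of 22 autosomes and the lower on 8, with isolated medians between 27.1 on chromosome 5 and 58.7 on chromosome 4. Counts per kb fell with length in both sets up to 6 kb and rose again beyond it. At 0.2 kb the medians were 163 (isolated) and 155 (other), and at 0.4 to 1 kb 80 and 83.3. They were 42.9 and 42.5 at 1.2 to 2 kb, and 33.5 and 33.2 at 2.2 to 3 kb. At 3.2 to 4 kb they were 27.6 and 29.1, and at 4.2 to 6 kb 25.6 and 27.3. Above that they were 26.4 and 29.2 at 6.2 to 9.8 kb, and 43.5 (5 isolated) and 48.1 (259 others) at 10 kb or more. From 3.2 kb upwards the isolated median was thus the lower in every class, as it was at 0.4 to 1 kb. Values at or above the autosomal upper quartile of 38.6 counts per kb made up 25% of autosomal regions by construction. They were found in 147 isolated regions (35.5%, interval 31.1 to 40.2%) and in 699 others (23.55%, 22.1 to 25.1%). The shortest regions reach this value by their length alone, since the lowest count of the list was 27. Without the regions of 1 kb or less, the medians were 31.1 and 30.5 counts per kb.

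A few isolated regions carried many reads for their length. Over 100 counts per kb were found in 4.35% of autosomal regions and in 30 isolated ones (7.25%, interval 5.12 to 10.2%). No count in the list was under 27, so a region of 200 bp passes this cut by its length alone. The 30 included all 10 isolated regions of 200 bp, so the higher share is in part set by length. Of these 30, 19 measured 1 kb or less, out of 51 isolated regions so short, and 11 were longer. The other autosomal regions had 117 over 100 counts per kb, and 92 of these were longer than 1 kb. The rest came from 72 other regions of 1 kb or less. Dense regions were thus about as frequent among the short regions of either set. The 19 held 0.78 to 4.22 times the median count of other regions of their length. That ratio was under 1 for 7 of them and 2 or more for 3. Regions of the second kind, dense and over 1 kb, made up 3.05% of autosomal regions, 2.66% of the isolated (1.49 to 4.70%) and 3.10% of the others (2.53 to 3.79%). The 11 held 63305 counts, or 60.1% of all counts in isolated regions.

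The densest was at the start of chromosome 18 (chr18:105201-112400), with 12755 counts over 7.2 kb. That was 1772 counts per kb and 58.4 times the median count of other autosomal regions of the same length. A region of 2.8 kb inside the long arm of chromosome 4 (chr4:68264201-68267000) came next, with 3719 counts, 1328 per kb and 41.8 times the equal-length median. It had no neighbour within 11.1 Mb. A second chromosome 4 region of the same length (chr4:80272601-80275400) held 869 counts, 9.76 times the median. Chromosome 2 had a region of 4.4 kb (chr2:162135001-162139400) with 1266 counts, 10.5 times the median. It lay 16.4 Mb from the region before it and 39.4 Mb from the next, which made it the third most remote of all members. On chromosome 9, 2.8 kb (chr9:72653001-72655800) held 605 counts, 6.80 times the median. At the other end of the scale, the 5 isolated regions with the fewest counts per kb lay between 20.6 and 21.5. They measured 5 to 6.6 kb, were on chromosomes 5 (2 regions), 2 (2 regions) and 17, and held 0.73 to 0.79 times the median of other regions of their length.

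The dense regions decided the pooled values. The 3 isolated regions with the highest counts, those on chromosomes 2 (33.4 kb), 1 (125.8 kb) and 18, held 55498 of the 105280 counts, or 52.7%. Over all isolated regions together there were 72.5 counts per kb, and 38.7 without these 3. The same sum over the other regions gave 74.8, and 63.1 without their own 3 highest. Leaving out 3 of 2968 regions removes a smaller share than leaving out 3 of 414, so the 2 falls cannot be compared directly. Isolated regions made up 7.71% of the covered autosomal length (1451 kb) and 7.49% of the autosomal count. Set against the median of other regions of equal length, 17 of 411 isolated regions (4.14%, interval 2.60 to 6.52%) and 86 of 2753 others (3.12%, 2.54 to 3.84%) reached a count at least 2 times as high. Whether repeated sequence that the build holds in fewer copies than the genome raised these counts was not tested.

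Length fell with the gap to the nearest region up to about 1 Mb and changed little beyond it. Among autosomal regions with a neighbour under 2 kb away, the median length was 5400 bp and 94 of 402 (23.4%) reached 10 kb. With the nearest neighbour 10 to 50 kb away, the median was 4000 bp and 5.16% reached 10 kb. At 250 to 500 kb, just outside the rule, it was 3400 bp (265 regions, 1.51% of 10 kb or more). Within the isolated set it was 3200 bp at 500 kb to 1 Mb (164 regions), 2800 bp at 1 to 2 Mb (115), 2900 bp at 2 to 5 Mb (88) and 2800 bp at 5 Mb or more (47). The fall in length was thus mostly complete below 500 kb. Compared with the 265 regions just outside the rule alone, the isolated median of 3000 bp was 0.88 times as long. Within the isolated set, the rank correlation of the nearest gap with length was -0.09, and with counts per kb it was 0.05 (Spearman's rho over 414 regions of 1 list). The share of regions of 1 kb or less was 17 of 265 (6.42%) at 250 to 500 kb and 13 of 164 (7.93%) at 500 kb to 1 Mb. It was 16 of 115 (13.9%) at 1 to 2 Mb, 11 of 88 (12.5%) at 2 to 5 Mb and 11 of 47 (23.4%) at 5 Mb or more.

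**Figure D3:**
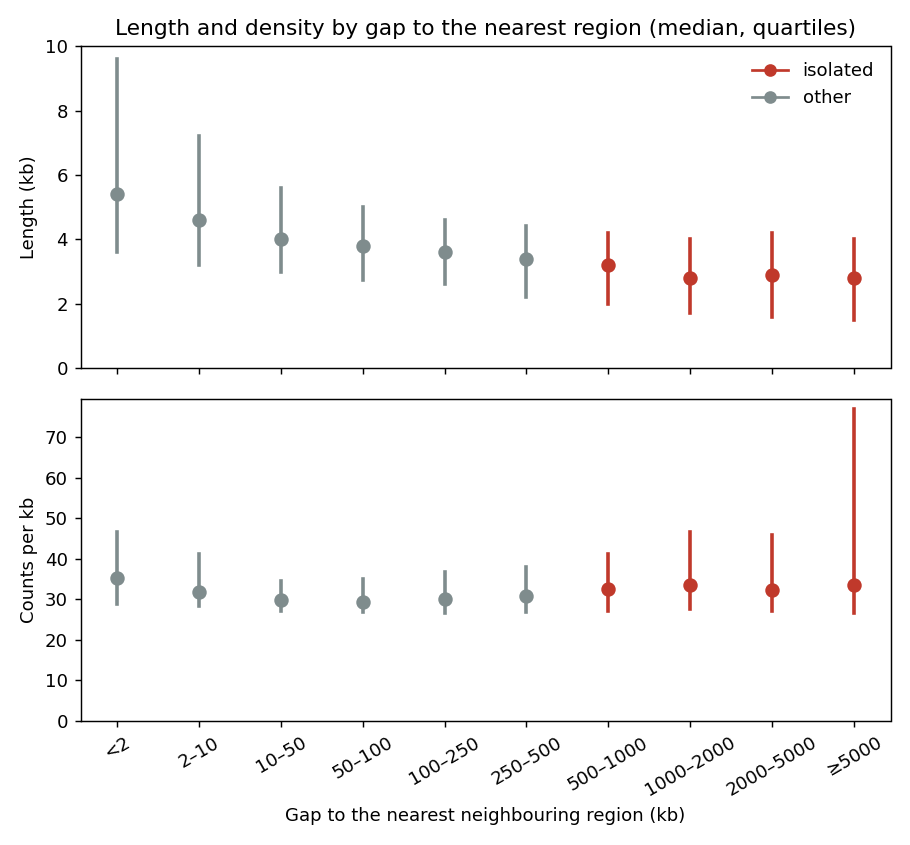
Region length in kb (top) and counts per kb (bottom) by the gap to the nearest neighbouring region in kb, for isolated (red) and other (grey) autosomal regions. Points are medians and lines run from the lower to the upper quartile; median length falls from 5.4 kb under 2 kb to 2.8 kb at 5 Mb or more.

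On both sides of the rule's edge lay regions of a few kb, with 1 shorter exception. The 3 members with the smallest nearest gap were a region of 2.4 kb on chromosome 9 (502.8 kb), one of 3 kb on chromosome 8 (503.8 kb) and one of 4.2 kb on chromosome 8 (504.2 kb), with 83, 90 and 116 counts. The 3 autosomal regions that missed the rule by least had gaps of 499.2 kb (chromosome 17, 4.4 kb, 118 counts) and 494.8 kb. The latter was shared by 2 neighbours on chromosome 19, of 3.2 kb (93 counts) and 0.6 kb (52 counts). Over all members the nearest gap had a median of 1224 kb (quartiles 776 and 2628 kb), and for the others it was 24.5 kb. It was 1 Mb or more for 250 members, 5 Mb or more for 47 and 10 Mb or more for 18.

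**Figure D4:**
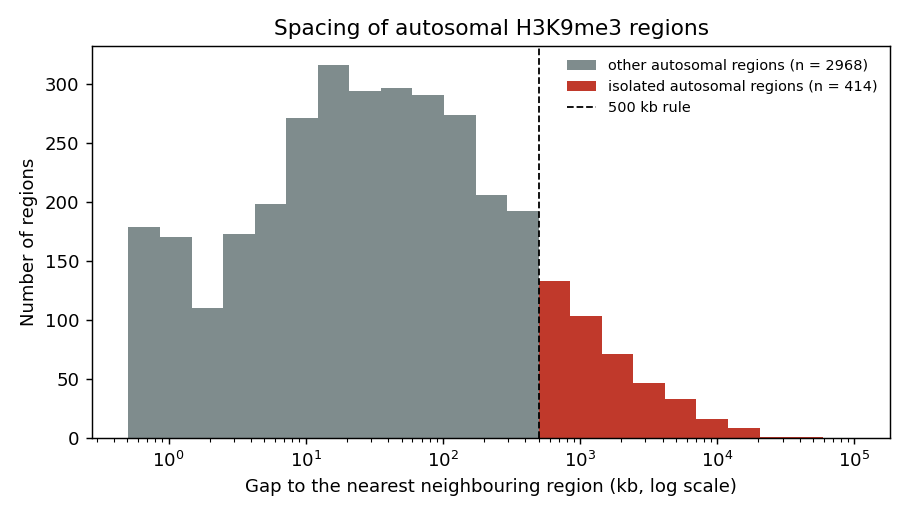
Number of autosomal regions by the gap to the nearest neighbouring region in kb (log scale), with the 500 kb rule as a dashed line. The 414 isolated regions (red) form the right tail of a broad distribution, from 502.8 kb to 41.3 Mb, with no break at the rule.

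Isolated regions often followed one another. The rule favours this, since a region beside an isolated one already has a gap of 500 kb or more on that side. The runs therefore describe the gaps that chose the members, and whether they exceed what the rule alone would give was not tested. Of the 414, 166 had an isolated region on each side, 178 had one on 1 side, and 70 lay between regions that were not isolated or at a chromosome end. They formed 159 runs, of which 89 held at least 2 members and 27 at least 5. The gaps beside isolated regions added up to 2160 Mb, which is 78.7% of the 2744 Mb between the first and last regions of the 22 autosomes. Unassembled sequence such as that of centromeres is counted in this length. The space beside isolated regions thus took up most of the autosomal length.

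The longest run comprised 12 regions on the long arm of chromosome 5 (chr5:55604601-155025400), 99.4 Mb in which no called region had a neighbour within 1 Mb. Their lengths were 1.4 to 6.6 kb, their counts 60 to 136, and their median density was 26.1 counts per kb. The second longest, 11 regions on chromosome 12 (chr12:61981401-126523200), spanned 64.5 Mb. Its regions were shorter: the median was 1400 bp, at 50.7 counts per kb. The third, 10 regions over 17.1 Mb of chromosome 18 (chr18:45228201-62355400), had a median length of 3900 bp and 30.4 counts per kb. The median lengths of these runs thus differed by more than those of isolated and other regions. These runs were chosen by their number of members after the values were seen.

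Across chromosomes, isolated regions varied far less in number per Mb than the rest, which is a description, since the gaps define both sets. They numbered 7 (chromosomes 21 and 22) to 32 (chromosome 3) per autosome, and the others 35 (chromosome 2) to 415 (chromosome 20). Per Mb of chromosome, measured from its first region to its last, isolated regions ranged from 0.073 on chromosome 4 to 0.297 on chromosome 18, a 4.05-fold range. The other regions ranged from 0.145 on chromosome 2 to 6.61 on chromosome 20, or 45.6-fold. After chromosome 18, the highest densities of isolated regions were those of chromosomes 19 (0.276) and 14 (0.272), and next to chromosome 4 the lowest were those of chromosomes 7 and 6 (both 0.076). The number of isolated regions was higher on longer chromosomes (Spearman's rho 0.51 with the span over 22 chromosomes, which share 1 list), and for the other regions rho was -0.18. An upper limit to the number per Mb follows from the rule, which allows no crowding of its members. Crowded regions fall among the others by the same rule. Whether the 2 ranges differ by more than the rule alone would give was not tested.

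As a share of each chromosome's regions, isolated ones ran from 2.35% on chromosome 20 (10 of 425, interval 1.28 to 4.28%) to 44.4% on chromosome 2 (28 of 63, 32.9 to 56.7%), against 12.2% over all autosomes. The shares on chromosomes 18 (32.9%), 12 (32.3%), 15 (31.2%) and 11 (29.2%) were next, and those on chromosomes 16 (3.98%), 22 (5.11%) and 21 (5.83%) were the lowest after chromosome 20. Chromosome 19, which carries many clusters of KRAB zinc finger genes, had 16 isolated regions of 205 (7.80%, 4.86 to 12.3%).

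**Figure D5:**
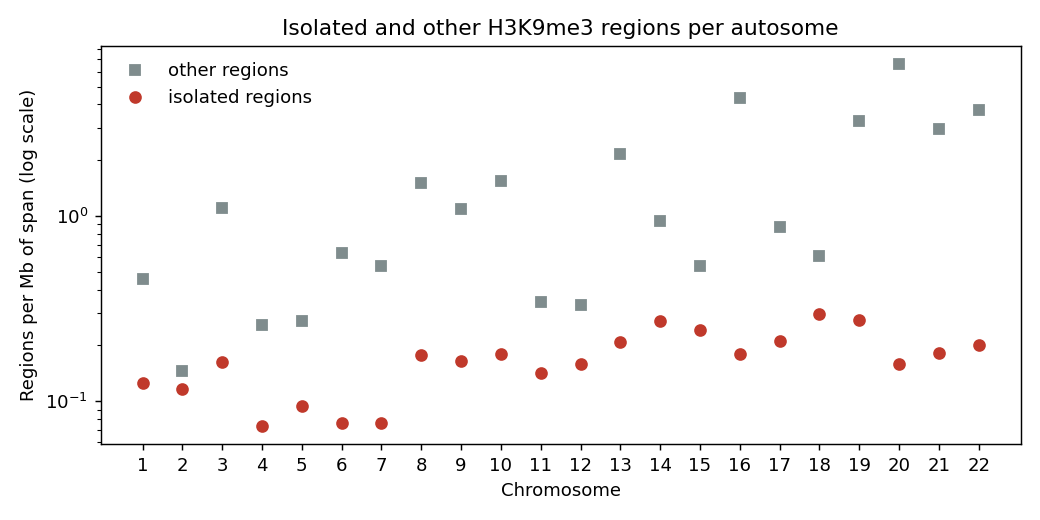
Number of isolated (red circles) and other (grey squares) regions per Mb of each autosome, measured from its first region to its last, on a log axis. Isolated regions range from 0.073 to 0.297 per Mb and the others from 0.145 to 6.61.

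The 6 members at chromosome ends shared no common size. They were the first regions of chromosomes 8 (1 kb, 81 counts), 18 (7.2 kb, 12755 counts) and 20 (6.8 kb, 254 counts) and the last of chromosomes 1 (1.4 kb, 343 counts), 16 (1.2 kb, 58 counts) and 21 (4.2 kb, 104 counts). Against other regions of equal length, the one on chromosome 18 had 58.4 times and the one on chromosome 1 5.24 times the median count, and the remaining 4 had 0.89 to 1.40 times.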

How the data were processed

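H3K9me3 ChIP and input libraries (2 of each) were made by SOLiD sequencing, per the labels' protocols. The submitters' processing notes name Bowtie, which aligns short reads, SICER, which calls broad enriched regions, and 2 names of the build, hg19 and GRCh37. Settings, threshold and any pooling of libraries: not given in the sources used here. Without a header, the last column of the deposited list was read as the authors' count of reads per region, not scaled for length, depth or input. All starts fell on a 200 bp grid, and the smallest space between regions was 800 bp. Positions are printed from 1.

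From this list, gaps, lengths and counts per kb were computed with Python 3.11.15, numpy 2.4.6, pandas 2.3.3, scipy 1.17.1 and matplotlib 3.10.9. The script that finds the members was tested on a simulated list. Equal-length comparisons needed at least 5 regions in each set, and a region's ratio to the median at its length needed at least 5 other regions. No test was run, since the list has no value per library. Planned for naming were the 10 longest members and the 3 regions on each side of the 500 kb rule's edge. So were the 5 with the highest count, most counts per kb, fewest counts per kb and largest nearest gap. Single windows, chromosome ends, runs and the dense regions over 1 kb were added after their values were seen. The members, the rule and these comparisons were chosen with earlier results of these data known. The gene and sequence tables at hand are on GRCh38 and were not used.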

Additional observations from a re-analysis of the deposited data

How the results depend on the processing

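No paired analysis was possible because values per library are not in the list. Leaving out single libraries was not possible either. Of 170 alternatives computed, 160 stayed within 1.5 times of the value reported, or within its interval for a share. Of the rest, 9 moved further and 1 turned its direction. However, 110 of the 170 only left out 1 autosome, and a tolerance of 1.5 times is wide for ratios close to 1. The number of isolated regions was 679 with a gap of 250 kb, 250 with 1 Mb, and 126 among regions whose count reached the autosomal median (278 when gaps were measured again among these), since these settings change the rule or shorten the list. The share of isolated regions of 10 kb or more rose to 3.97% among those higher-count regions and to 5.04% when their gaps were measured again, against 16.3 and 17.4% of the others. The ratio of median counts per kb turned to 0.98 as a mean over chromosomes; the cause was not tested. The isolated share of chromosome 2 fell to 27.0% with 1 Mb. That of chromosome 20 was 5.41% with 250 kb, 0% with 1 Mb (0 of its 425 regions) and 6.38% with gaps measured again. With each autosome left out in turn, the number of isolated regions ran from 382 to 407, the length ratio from 0.71 to 0.75, the ratio of counts per kb from 1.06 to 1.09, the equal-length ratio from 0.96 to 0.98 and the share of 10 kb or more from 0.76 to 1.31%. Regions with a neighbour 250 to 500 kb away, a comparison chosen after the data were examined, gave a length ratio of 0.88. Against these regions the equal-length ratio was 0.99. It was 1 among the higher-count regions with gaps measured again, and 0.95 to 0.98 in all other settings. The equal-length ratio as a mean over chromosomes was not run, since single chromosomes hold too few regions of each length.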
